A study of Mus musculus with 8 samples.

Results

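The barcodes described here carried transcripts of genes that act in DNA replication, in DNA repair or at centromeres, or the processed transcript 2810408I11Rik. A barcode, the tag that marks the RNA of 1 droplet, was selected on 2 conditions: at least 100 unique molecular identifiers (UMIs, counted RNA molecules) over the complete gene rows, and a summed count of at least 2 UMIs over Mcm3, Prim2, Bard1, Sgol2, Hjurp and 2810408I11Rik. These are called the 6 rule genes below. Of the 1388 barcodes with at least 100 UMIs, among 1460 in the table, 185 met the rule, which is 13.3% (exact Clopper-Pearson 95% interval 11.6 to 15.2%). The 899 barcodes with none of the 6 transcripts, called the reference, were the barcodes they were compared with, and the 304 barcodes with exactly 1 such UMI lay between.

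The cells came from stomach glands of Atp4bCre; Rosa26NICD; Arid1aflox/flox mice aged 23 weeks, and no group of another genotype or treatment was analysed here. Cre under the Atp4b promoter, the gene of a proton pump subunit of parietal cells, acts on a Rosa26 allele for the intracellular, active domain of Notch and on floxed Arid1a, a subunit gene of the BAF chromatin remodelling complex. Dissociated cells were sorted for high EPCAM, an epithelial surface protein, and for low Sytox Blue, a stain of dead cells, and were profiled by droplet sequencing on the 10x platform. The labels list 8 samples, do not say that they came from separate animals, and nothing ties a barcode to one of them, so the members are from 1 pooled sample with no replicates. No p-value is given for that reason. All intervals are 95% intervals for counting error alone, and cells are not replicates.

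The table as used here covers 779 genes of part of chromosome 1, and its totals are not library depth. Totals ran from 100 to 1082 UMIs in the kept barcodes, and 3 ribosomal protein genes (Rpl7, Rpl31 and Rpl37a) gave 40.3% of the UMIs, so a level moves when those genes move. Levels are given as CPM, counts per 1000000 of a class's UMIs in the table, the 6 rule genes left out. Doublets were not removed and no caller was run, and their part in the results below was not tested. No barcode was listed more than once among the 1460.

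A dividing cell copies its DNA once per cycle and then separates the copies. Before S phase, origin recognition complexes load the MCM helicase onto DNA, a step called licensing, and primase later lays down the RNA primers from which DNA polymerases start. Chromosomes are pulled apart at centromeres, which are marked by a special histone H3 that must be replenished in every cycle, and the shugoshin proteins keep sister centromeres joined until they are to separate. E2F factors activate many genes of S phase, while genes of mitosis often carry a cell cycle homology region (CHR) and CCAAT boxes, bound by the MuvB complexes and by NF-Y.

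The promoters of the 5 rule genes with an entry are shown because these transcripts were summed to choose the barcodes, and that of Tex30 because it had the highest ratio outside the rule and holds one of the motifs searched. RefSeq promoter windows (GRCm38.p6) of 250 bases before to 50 after a gene's start were searched on both strands for E2F-type letters (TTTCCCGC, TTTGGCGC, TTTCGCGC or TTTGCCGC), for the CHR letters TTTGAA and TTCGAA, and for CCAAT. None of these strings contains another. Sequences run 5′ to 3′ along the gene from 250 bases before the start through the first 30 bases of the transcript, with motif letters of either strand in capitals.
Mcm3, chr1:20820283-20820562, minus strand: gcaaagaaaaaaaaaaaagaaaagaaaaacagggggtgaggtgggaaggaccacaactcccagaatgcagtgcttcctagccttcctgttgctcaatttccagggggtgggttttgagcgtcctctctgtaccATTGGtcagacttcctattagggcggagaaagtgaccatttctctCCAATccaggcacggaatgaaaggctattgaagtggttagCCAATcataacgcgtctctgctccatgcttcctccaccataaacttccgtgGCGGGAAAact
Bard1, chr1:71102943-71103222, minus strand: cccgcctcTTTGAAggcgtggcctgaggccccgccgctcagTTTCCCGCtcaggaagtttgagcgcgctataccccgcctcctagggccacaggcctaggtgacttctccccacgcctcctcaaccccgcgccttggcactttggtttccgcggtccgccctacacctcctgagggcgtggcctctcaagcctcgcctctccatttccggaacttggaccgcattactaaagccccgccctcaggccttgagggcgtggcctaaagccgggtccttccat
Hjurp, chr1:88277550-88277829, minus strand: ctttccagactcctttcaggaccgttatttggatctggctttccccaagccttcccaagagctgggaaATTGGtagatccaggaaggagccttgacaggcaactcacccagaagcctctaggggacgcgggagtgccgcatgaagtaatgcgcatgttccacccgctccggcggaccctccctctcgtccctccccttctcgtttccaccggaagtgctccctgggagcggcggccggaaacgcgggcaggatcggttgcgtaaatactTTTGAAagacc
Sgol2, chr1:57995724-57996003, plus strand: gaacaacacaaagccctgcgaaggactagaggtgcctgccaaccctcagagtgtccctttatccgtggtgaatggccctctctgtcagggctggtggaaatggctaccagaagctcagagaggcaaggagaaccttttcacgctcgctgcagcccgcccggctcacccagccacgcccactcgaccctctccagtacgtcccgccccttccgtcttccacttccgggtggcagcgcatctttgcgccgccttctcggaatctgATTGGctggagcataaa
2810408I11Rik, chr1:64690630-64690909, minus strand: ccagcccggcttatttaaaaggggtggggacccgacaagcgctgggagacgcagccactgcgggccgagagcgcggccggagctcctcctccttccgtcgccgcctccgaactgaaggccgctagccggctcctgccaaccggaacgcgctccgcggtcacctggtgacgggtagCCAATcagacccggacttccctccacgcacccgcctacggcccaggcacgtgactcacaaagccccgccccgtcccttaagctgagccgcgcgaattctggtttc
Tex30, chr1:44102412-44102691, minus strand: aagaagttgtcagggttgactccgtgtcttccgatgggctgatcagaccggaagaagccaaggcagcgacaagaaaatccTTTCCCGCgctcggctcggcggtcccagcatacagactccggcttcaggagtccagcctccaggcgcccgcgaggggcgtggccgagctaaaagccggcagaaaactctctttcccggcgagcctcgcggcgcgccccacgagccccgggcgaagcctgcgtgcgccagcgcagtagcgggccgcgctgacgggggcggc
In the Mcm3 window, E2F-type letters stood 2 times after the start, as GCGGGAAA at positions 20 to 27 and, beyond the stretch shown, as TTTGGCGC at positions 39 to 46, counting the first transcribed base as 1. CCAAT letters stood 3 times before it. The Bard1 window held TTTCCCGC at positions -209 to -202 and TTTGAA at -242 to -237. The Hjurp window held TTTGAA at positions 20 to 25 and ATTGG, the CCAAT letters on the opposite strand, at -182 to -178. The windows of Sgol2 (ATTGG at positions 14 to 18) and 2810408I11Rik (CCAAT at -75 to -71) held neither E2F-type nor CHR letters. Sgol2 has another listed start upstream, not shown, with CCAAT letters alone as well. Among the 5 rule genes with an entry (Prim2 was without one), 2 held E2F-type letters, 2 CHR letters and 4 CCAAT. Over all 32851 promoters of the table the shares were 2.26%, 19.2% and 37.4%. A match describes these letters and does not show that a factor binds there.

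The summed count that chose the members is a description and no finding. It was 2 in 85 members and 3 or more in 100, with a highest value of 11 in 1 barcode. Mcm3, a subunit of the replicative helicase (chromosome 1, 20802968 to 20820312, minus strand), gave 247 of the members' rule UMIs, and 130 members (70.3%) held at least 1. Hjurp, the chaperone that places the centromeric histone (88262471 to 88277633, minus strand), gave 177 UMIs in 116 members (62.7%). Together these genes supplied most of the sum. Prim2, the large primase subunit (33453810 to 33669795, minus strand), gave 73 UMIs in 59 members. The processed transcript 2810408I11Rik (64679871 to 64690659, minus strand) gave 72 UMIs in 56 members. Sgol2, the shugoshin annotated as Sgo2a (57995971 to 58025899, plus strand), gave 45 UMIs in 35 members, and Bard1, the partner of BRCA1 in homologous recombination (71027498 to 71103146, minus strand), 39 UMIs in 32. Coordinates are those of GENCODE M21 on GRCm38.

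Most members held more than 1 of the 6 genes. The number of different rule genes was 1 in 36 members, 2 in 84, 3 in 41, 4 in 19 and 5 in 5 members, and no member held all 6. Among the members with a single gene, 21 held Mcm3, 12 Hjurp, 2 2810408I11Rik and 1 Sgol2. The most frequent combination was Mcm3 with Hjurp alone, in 29 members.

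Members had higher totals than the reference, and a deeper barcode has more chances to reach a sum of 2. The median total was 457 UMIs (128 to 1082) in members and 258 (100 to 768) in the reference. Just outside the threshold, the 304 barcodes of sum 1 had a median of 319.5, and just inside it the 85 of sum 2 had 395. The share of members was 3.33% (11 of 330) from 100 to under 200 UMIs, 5.68% (23 of 405) to under 300, 12.7% (39 of 307) to under 400, 27.4% (76 of 277) to under 600 and 52.2% (36 of 69) at 600 or more. The share was thus higher in each deeper bin, as the plot of summed count and depth shows. With every barcode thinned to 100 UMIs, the median of the expected number of genes was 35.4 in members and 36.7 in the reference, against 89 and 67 genes before thinning. All ratios below compare members with reference barcodes within these 5 bins and combine the bins into 1 ratio. Within each of the 5 bins members were still deeper. From the shallowest to the deepest bin, median totals were 164, 275, 351, 509.5 and 695 UMIs in members. In the reference they were 158, 248, 345, 460 and 647 UMIs.

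**Figure D1:**
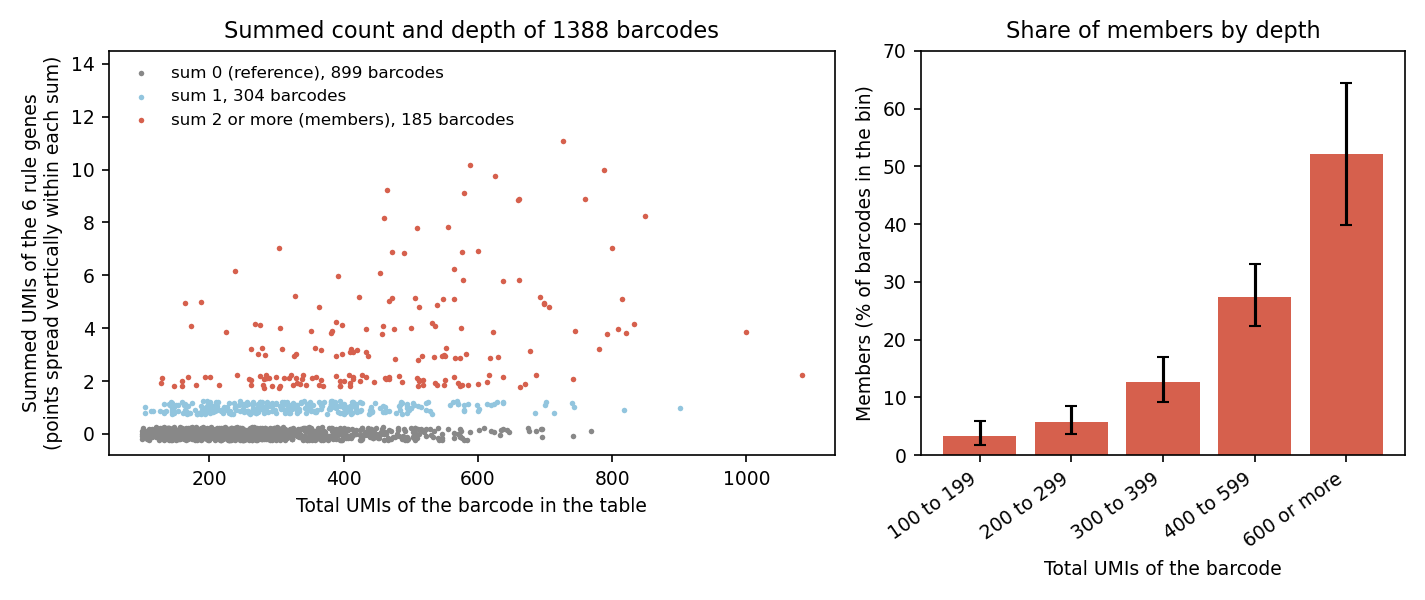
Left, the summed UMIs of the 6 rule genes (vertical axis) against the total UMIs of each of 1388 barcodes, coloured by class. Right, the percentage of barcodes in each bin of total UMIs that are members, with exact Clopper-Pearson 95% intervals; it runs from 3.33% in the shallowest bin to 52.2% in the deepest.

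Each rule gene was more abundant in barcodes chosen by the other 5, a measure in which the gene itself took no part. The 6 genes were, however, chosen as a set with earlier results of these data known. These ratios therefore describe the set and give it no independent support. Bard1 had 30 UMIs in the 176 barcodes with a sum of at least 2 over the other genes and 12 in the 911 with a sum of 0, a ratio of 9.14 (4.17 to 21.3) over depth bins. The ratio was 7.83 (3.58 to 18.6) for Sgol2, 5.64 (3.29 to 9.90) for 2810408I11Rik and 5.46 (3.15 to 9.64) for Prim2. The most abundant genes had the smallest ratios, with 3.87 (2.92 to 5.12) for Mcm3 and 3.49 (2.54 to 4.77) for Hjurp. A UMI of Mcm3 was seen in 53.0% of barcodes with a high sum over the other 5 and in 12.1% of those with a sum of 0. For Sgol2 the shares were 16.2% and 0.991%. Free RNA in droplets can give such UMIs, and no class of barcodes known to lack these genes was at hand, so its part was not tested. All 6 ratios exceeded 1 with each of 7 alternatives to the bins, weights, depth limits or totals, between a lowest value of 3.16 for Hjurp and a highest of 11.8 for Sgol2.

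**Figure D2:**
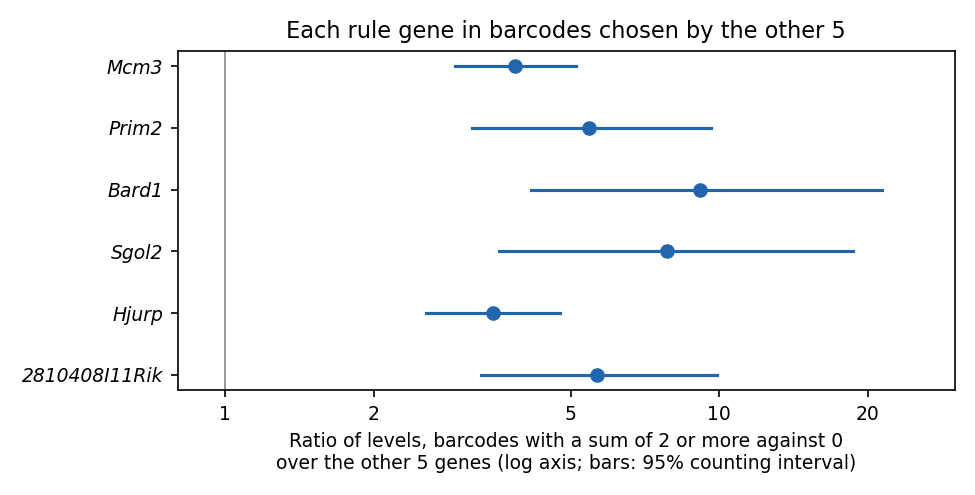
Ratio of the level of each rule gene (log axis) between barcodes with a summed count of at least 2 and of 0 over the other 5 genes, within depth bins, with 95% counting intervals. Every interval lies above 1, from 3.49 for Hjurp to 9.14 for Bard1.

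Pair by pair, the highest ratio joined the centromere genes Sgol2 and Hjurp. In the 245 barcodes with a Hjurp UMI the level of Sgol2 was 5.24 times that in the others (2.83 to 9.98), the highest of the 30 ordered pairs. Bard1 in the 43 barcodes with Sgol2 followed at 4.97 (2.12 to 10.7). For the pair that supplied most of the sum, Hjurp was 1.52 times as high (1.16 to 1.98) in the 233 barcodes with Mcm3. The lowest ratios joined 2810408I11Rik and Sgol2, at 1.36 (0.608 to 2.75) and 1.42 (0.635 to 2.95) in either direction, with intervals that include 1. Like the ratios above, those of the pairs describe genes that were chosen together. The differences between pairs were not tested. Part of the annotated 2810408I11Rik, 205 bases, overlaps Ccnyl1 on the opposite strand, and 22986 bases of Sgol2 overlap Kctd18. The sources used here do not say whether counting used strand. The ratios of members to reference were 1.36 (0.886 to 2.07) for Ccnyl1 and 1.03 (0.451 to 2.21) for Kctd18.

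The name of the members as cycling cells rests on the 6 rule genes themselves. Of a list of 15 genes of S phase and replication, only Orc2 was measured in this stretch of chromosome 1, and of 14 genes of mitosis and centromeres none was. The other list members, Mki67, Top2a and Pcna among them, were not analysed here. Phase calls were therefore not made.

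Orc2, a subunit of the origin recognition complex on which the helicase is loaded (58462771 to 58505109, minus strand), was higher in members. It had 64 UMIs in 47 of 185 members and 91 UMIs in 86 of 899 reference barcodes. The level was 754.5 CPM (581 to 963) in members against 290 CPM in the reference weighted to the members' bins, a ratio of 2.00 (1.35 to 2.96). Across the bins it was uneven. In the deepest bins the ratio was 5.24 (24 and 2 UMIs, at 600 or more) and 2.70 (32 and 19 UMIs, at 400 to under 600). It was 0.99 at 300 to under 400 UMIs, the members had no Orc2 UMI at 200 to under 300, and 3 UMIs in members stood against 15 below 200. The level was 290, 302, 1033 and 623 CPM at summed counts of 0, 1, 2 and 3 or more, in the same bin weights, so it was higher on both steps above the threshold and not below it. Over 18 alternatives the ratio lay between 1.38 and 2.25.

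Outside the rule, 225 genes had at least 50 UMIs in the compared barcodes. Their median ratio of members to reference was 0.979, with the 10th percentile at 0.733 and the 90th at 1.45, and 104 of them were above 1 and 121 below. A ratio of at least 1.5 was found for 18 genes, 8.00% of those compared, and a ratio of at most 1/1.5 for 14 genes, 6.22%. Genes past either limit were low in abundance, with medians of 141 and 99.5 UMIs against 307 UMIs for all genes compared. The 12 highest and 12 lowest ratios and the genes of the lists are described below.

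Tex30 had the highest ratio (44086613 to 44102441, minus strand). It had 101 UMIs in 73 members and 133 UMIs in 122 reference barcodes, 1191 CPM (970 to 1447) against 539 CPM, a ratio of 2.31 (1.69 to 3.16). The ratio was above 1 in each of the 5 bins, from 1.25 to 3.83. The Tex30 promoter shown above holds TTTCCCGC at positions -170 to -163. Terf1, the shelterin subunit that binds the double-stranded repeats of telomeres (15805646 to 15844052, plus strand), had 79 UMIs in 63 members against 114 in 106 reference barcodes, a ratio of 1.98 (1.39 to 2.79). It too was above 1 in each bin, from 1.12 to 2.38. Of the 12 highest genes, 9 had a promoter entry, of which 2 (Tex30 and Tmem237) held E2F-type letters, 4 CHR letters and 4 CCAAT. Of the 12 lowest, 11 had an entry, of which 0, 1 and 7 held them. The shares over all promoters, 2.26%, 19.2% and 37.4%, count each start once, whereas a gene with several starts was counted here if any of them held the letters.

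The other high genes had fewer UMIs and wider intervals. Mars2, the mitochondrial methionyl-tRNA synthetase, had a ratio of 1.84 (1.07 to 3.15), and Fastkd2, a mitochondrial RNA-binding protein, 1.67 (1.06 to 2.61). Tmem237, a protein of the transition zone of the primary cilium, stood at 1.89 (1.10 to 3.21), and Rqcd1, a subunit of the CCR4-NOT deadenylase, at 1.69 (1.17 to 2.43). Rab23, 1700019D03Rik, Ankrd44 and Slc9a2 lay between 1.68 and 1.79 with intervals that include 1. Igfbp2, which binds insulin-like growth factors, had a ratio of 2.22 (0.984 to 4.75), but its 13 UMIs in members came from 2 barcodes. Without the 3 barcodes highest in Igfbp2 the ratio was 0.354.

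Of the nucleolus and ribosome biogenesis list, Ncl, Nop58 and Wdr12 were higher in members, and Wdr75 was not distinguishable from 1. All 4 compared genes were above 1, as were 104 of all 225 genes. Of the 4, 1 passed 1.5 (8.00% of all genes did). The median ratio of the list was 1.45 against 0.979 for all genes. Ncl, nucleolin, which takes part in the transcription and processing of ribosomal RNA, had 1662 UMIs in 182 members and 3313 in 826 reference barcodes. Single members ran from 0 through a median of 17964 to 63943 CPM and reference barcodes from 0 through 12048 to 61644 CPM, so the classes overlap over almost their whole range while the middle of the members lies higher. The summed level was 19593 CPM (18663 to 20559) against 12919 CPM, a ratio of 1.45 (1.35 to 1.55). By bin, from shallow to deep, the ratio was 1.27, 1.36, 1.34, 1.45 and 1.79.

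Nop58, a core protein of the particles that methylate ribosomal RNA, had 328 and 534 UMIs and a ratio of 1.53 (1.30 to 1.80). Wdr12, which matures the large ribosomal subunit, had a ratio of 1.45 (1.05 to 2.00). Wdr75, which acts early in making the small subunit, had 1.04 (0.742 to 1.45). The levels of Ncl and Nop58 were higher at each successive sum, also between 0 and 1. In the members' bin weights Ncl was 12919, 14431, 18235 and 20620 CPM at sums of 0, 1, 2 and 3 or more, and Nop58 was 2486, 3089, 3401 and 4062 CPM.

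The mitochondrial chaperonin pair was also higher in members, with smaller ratios. Hspd1, the chaperonin itself, had 1265 and 2307 UMIs, 14913 CPM against 11693 CPM and a ratio of 1.30 (1.2 to 1.40). Hspe1, its lid-like partner, had 2984 and 6274 UMIs and a ratio of 1.23 (1.17 to 1.29). These neighbours are transcribed in opposite directions from a shared promoter region and their annotated ends overlap. Hspd1 was at 11693, 10918, 12260 and 17201 CPM across the 4 sums, so most of the difference stood at sums of 3 or more. Both were also higher in deeper reference barcodes, where Hspd1 ran from 6138 CPM below 200 UMIs to 13921 CPM at 600 or more.

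Ptma, prothymosin alpha, an abundant acidic nuclear protein that binds histones, was 123385 CPM (121032 to 125772) in members and 101048 CPM in the reference, a ratio of 1.27 (1.24 to 1.30). The median of single members was 112360 CPM (23810 to 285185) and of reference barcodes 75188 CPM (4525 to 227778) before depth was matched. Within the reference the level also differed with depth, from 71969 CPM in the shallowest bin to 125111 CPM in the deepest. The ratio within bins was between 1.08 and 1.43. Ptma and ribosomal protein genes have many processed copies in the genome, and the sources used here do not say how reads shared with them were counted.

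The cytosolic ribosomal proteins did not share the direction of the nucleolar genes. None of the 4 genes of that list, Rpl7, Rpl31, Rpl37a and the elongation factor subunit Eef1b2, was above 1, with ratios from 0.90 for Rpl7 to 0.99 for Rpl37a. Levels are shares of 1 total, so the higher levels of Ptma, Ncl and the chaperonins in members lower the shares of other genes. The list had a median ratio of 0.956, and the part of this effect here and in the next list was not tested. Of 8 genes of the respiratory chain and mitochondrial ribosome, 1 was above 1, with a median of 0.914 and no gene past either limit. Of all 225 genes, 104 were above 1, 8.00% were at or above 1.5 and 6.22% at or below 1/1.5. Leaving Rpl7, Rpl31, Rpl37a and Ptma out of the totals gave 20 genes at or above 1.5 and 14 at or below 1/1.5, and these included all 18 and all 14 named by the ratios above. In members the ribosomal protein genes were lower and Ptma higher, and these 4 genes together took a similar part of both totals. Their removal could therefore move the ratios only a little, so this overlap was largely given beforehand.

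Among DNA repair genes 3 of the 4 compared were above 1, beside 104 of all 225, with wide intervals. Smarcal1, which rewinds DNA at stalled replication forks, had 25 and 55 UMIs and a ratio of 1.61 (0.895 to 2.83). Ercc5, a nuclease of nucleotide excision repair, was at 1.16 (0.693 to 1.89) and Xrcc5, which binds double-strand breaks, at 1.10 (0.784 to 1.54). Nabp1, which binds single-stranded DNA, was at 0.631 (0.259 to 1.41). None of these could be told from 1 at this depth. Of 6 enzymes of nucleotide, amino acid and tRNA metabolism 4 were above 1, among them Atic, which completes purine synthesis, at 1.27 (1.02 to 1.58). Idh1, the cytosolic isocitrate dehydrogenase, was at 0.830 (0.746 to 0.923).

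**Figure D3:**
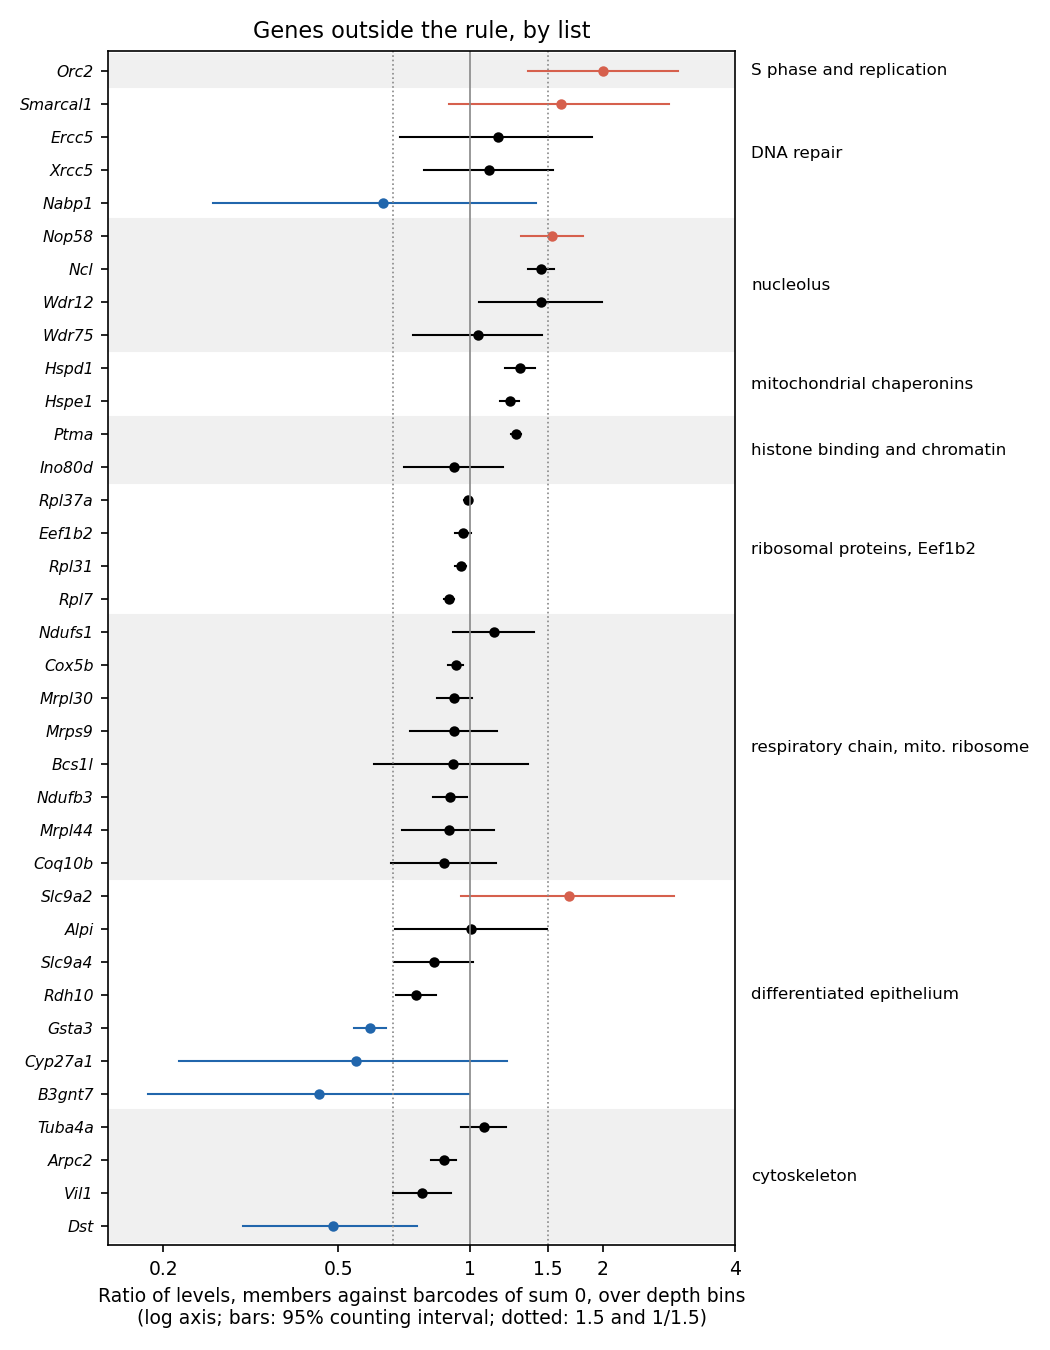
Ratio of the level in members to that in barcodes of sum 0 over depth bins (log axis) for the compared genes of 9 lists, with 95% counting intervals (Arid5a, also on the transcription factor list, is not drawn); orange marks ratios of at least 1.5, blue at most 1/1.5. Nucleolar and chaperonin genes lie to the right of 1, Gsta3 (0.591) and Dst (0.486) to the left, and ribosomal protein genes close to 1.

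Of the list for differentiated epithelium, Gsta3, Rdh10 and B3gnt7 were lower in members, with intervals below 1. Of 7 compared genes, 3 were at or below 1/1.5 (6.22% of all genes were) and 1, Slc9a2, at or above 1.5 (8.00% of all genes), with a median ratio of 0.751 against 0.979 for all genes. Gsta3, a glutathione transferase (21240589 to 21265661, plus strand), had 887 UMIs in 143 members and 3612 in 637 reference barcodes. Its level was 10457 CPM (9780 to 11168) against 17459 CPM, a ratio of 0.591 (0.544 to 0.642). Single members ran from 0 through a median of 6289 to 59259 CPM and reference barcodes from 0 through 7519 to 116279 CPM, again with broad overlap. The ratio was below 1 in each bin, from 0.87 in the shallowest to 0.53 at 300 to under 400 UMIs. Over the sums of 0, 1, 2 and 3 or more it was 17459, 15752, 14183 and 8730 CPM.

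Rdh10, which oxidises retinol on the way to retinoic acid, had 547 and 2238 UMIs and a ratio of 0.751 (0.675 to 0.834). Its level was 8228, 8799, 8175 and 5316 CPM over the 4 sums, so only the barcodes with 3 or more stood apart. B3gnt7, a glycosyltransferase, was at 0.452 (0.185 to 0.992) with 9 UMIs in members. Over the 4 sums B3gnt7 was 193, 116, 244 and 97 CPM, so barcodes with a sum of 2 were not below the reference. Cyp27a1, a sterol hydroxylase, was at 0.549 (0.217 to 1.21). Slc9a4, a sodium-proton exchanger, was at 0.826 (0.670 to 1.01), and Alpi, intestinal alkaline phosphatase, at 1.00 (0.672 to 1.49). That value for Alpi joins unlike bins: members had 0 UMIs below 400 UMIs, where the reference had 3, 26 and 34, and 38 UMIs against 4 at 600 or more, a ratio there of 4.15. Its ratio ran from 0.574 without the deepest 5% of barcodes to 1.70 without bins. Vil1, villin, which bundles actin in microvilli, was at 0.777 (0.667 to 0.902), Arpc2, a subunit of the actin-branching complex, at 0.869 (0.814 to 0.926), and Dst, a linker of the cytoskeleton to hemidesmosomes, at 0.486 (0.303 to 0.758).

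**Figure D4:**
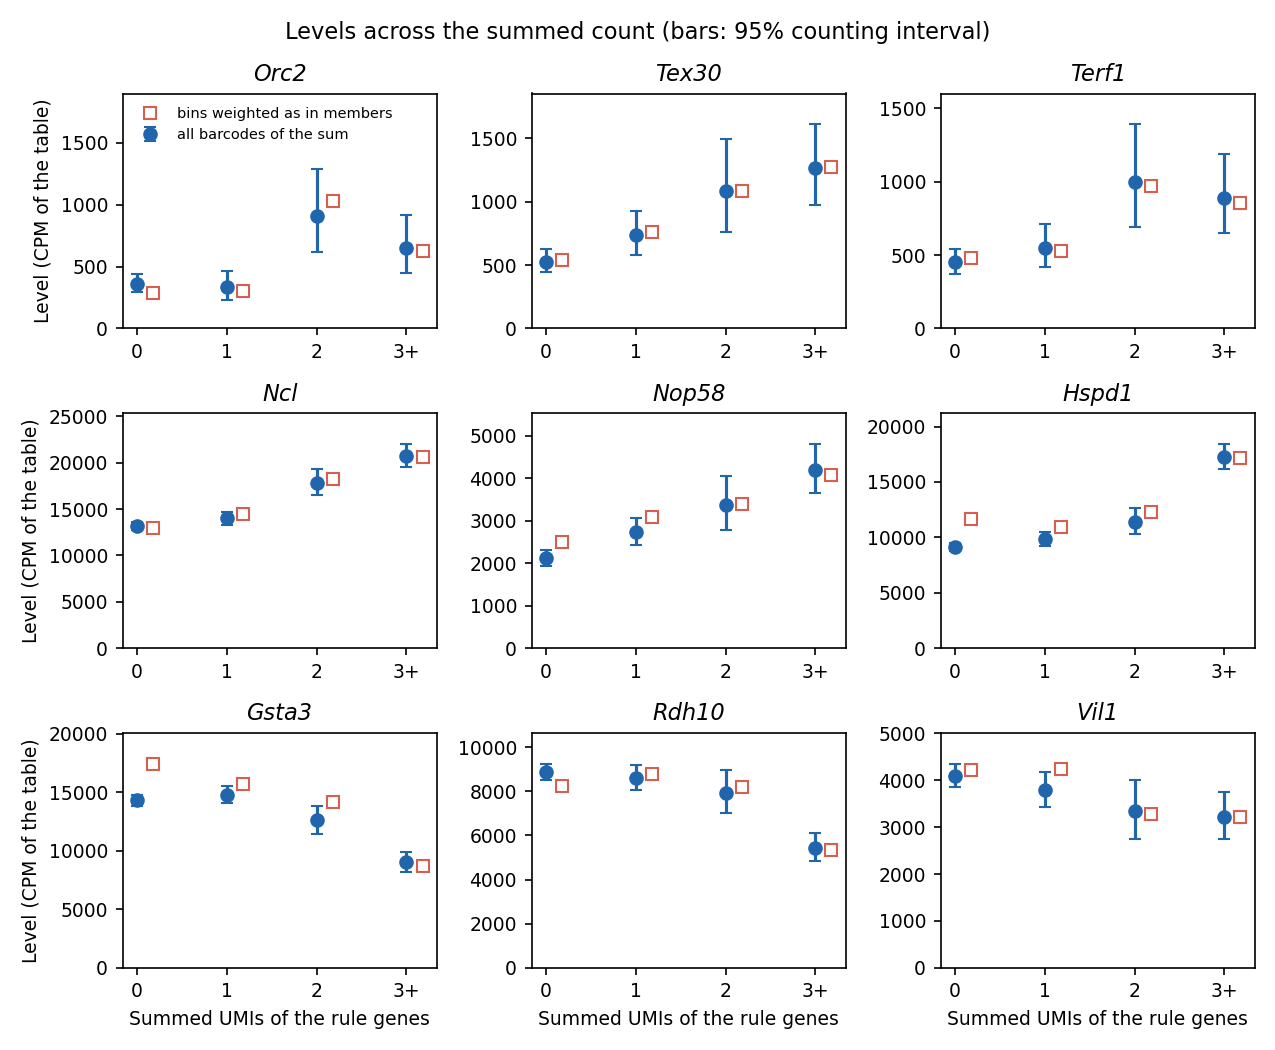
Level (CPM of the table) of 9 genes against the summed UMIs of the rule genes. Filled circles with 95% counting intervals pool all barcodes of a sum, and open squares weight the depth bins as in the members. Ncl and Nop58 are higher at each sum, Orc2 is higher from a sum of 2, and Gsta3 is lowest at 3 or more (8730 CPM, weighted).

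Among the other low genes, Ikzf2, a zinc finger transcription factor, was at 0.552 (0.321 to 0.913). None of the 4 compared genes of the transcription factor list was above 1, beside 104 of all 225. Il1r1, the receptor of interleukin 1, was at 0.592 (0.407 to 0.847), and Mettl21a, a methyltransferase of chaperones, at 0.554 (0.338 to 0.882). Pkhd1, the cilium protein fibrocystin, and AI597479 were at 0.594 and 0.616 with intervals that include 1. The remaining lists had few genes past either limit, as did all genes compared (8.00% at or above 1.5 and 6.22% at or below 1/1.5). Of 6 genes of the proteasome and ubiquitin-like pathways none passed, and of 6 RNA processing genes only Rqcd1 did. In the apoptosis list Casp8 was at 1.07 (0.852 to 1.33) and Cflar, its inhibitor, at 0.710 (0.525 to 0.951). The Wnt receptor Fzd5 was at 1.30 (0.980 to 1.71).

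The lowest ratios belonged to endocrine genes, and they rested on few barcodes. Ptprn, a membrane protein of dense-core granules, had 12 UMIs in 4 members, 11 of them in 3 barcodes, and a ratio of 0.255 (0.120 to 0.499). Resp18, another protein of those granules, had 2 UMIs in members and a ratio of 0.305 (0.0327 to 1.31), with 84.5% of its UMIs in 3 barcodes. Scg2 had 0 UMIs in members and 13 in the reference. The 3 measured endocrine markers of 5 summed to 14 UMIs in 5 of 185 members and 162 UMIs in 29 of 899 reference barcodes. The shares of barcodes with any of these UMIs were thus close, before depth was matched. The highest sum in 1 barcode was 8 in members and 36 in the reference.

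Markers of other cell types were counted beside these results, and their part in the ratios was not tested. The 3 measured tuft cell markers of 6 had a ratio of 1.03 (0.840 to 1.25), of which Ptpn18 gave 143 of 161 UMIs in members and Inpp5d 3. Of 5 stromal markers 4 were measured, at a ratio of 1.44 (1.08 to 1.91), and 82 of their 83 UMIs in members were Fn1, with Col3a1 and Col5a2 at 0. Of 8 immune markers 7 were measured, at 1.06 (0.820 to 1.37), with 78 of 110 UMIs in members from Il18r1 and Cd28, Icos and Slc11a1 at 0. The 3 measured intestinal markers of 4 had a ratio of 0.803 (0.698 to 0.923), with Akp3 at 0 in every barcode. A single member held at most 15 UMIs of the tuft list, 8 of the endocrine or the stromal list, 5 of the immune and 21 of the intestinal list. None of the 6 gastric markers was measured here, so the labelled tissue could not be checked against them.

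Members differed among themselves in which rule genes they held. A division chosen after the values were seen separates 59 members (31.9%) with a UMI of Mcm3 or Prim2 and none of Sgol2 or Hjurp, called replication members, 32 (17.3%) with Sgol2 or Hjurp and neither of the others, called centromere members, and 92 (49.7%) with both. The remaining 2 members held 2810408I11Rik alone. Median totals were 463, 377 and 472 UMIs in the first 3 kinds. Their median summed counts were 3, 2 and 3, and the part of the sum in the contrasts below was not tested.

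Of 79 named genes compared between the kinds, 10 had an interval that excludes 1, and all 10 are given here. The named genes include the 12 highest and 12 lowest ratios to the reference. No share over all 225 genes stands beside this count, and the intervals leave out differences between single barcodes, so it is a description only. Both chaperonin genes and 2 of the 4 nucleolar genes were higher in replication members than in centromere members. Nop58 was at 1.90 (1.52 to 2.36) times the reference in replication members and 0.897 (0.584 to 1.33) in centromere members, a ratio between the kinds of 2.12 (1.38 to 3.34). Ncl was at 1.61 and 1.27 times the reference, a ratio between the kinds of 1.29 (1.10 to 1.53). Wdr75 (1.17, 0.534 to 2.77) and Wdr12 (0.624, 0.304 to 1.29) could not be told from 1 between the kinds. Hspd1 was at 1.37 (1.22 to 1.53) and 1.01 (0.848 to 1.2), a ratio between the kinds of 1.33 (1.09 to 1.62). Hspe1 was at 1.34 (1.25 to 1.44) and 0.998 (0.892 to 1.11), a ratio of 1.35 (1.2 to 1.53). Thus the chaperonin pair stood above the reference in replication members and beside it in centromere members. The summed count was not matched between the kinds. In the members' bin weights Hspd1 was 12260 CPM at a sum of 2 against 11693 CPM at 0, and Hspe1 32291 against 28199 CPM.

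Atic was also higher in replication members, at a ratio between the kinds of 2.14 (1.14 to 4.34), as was Cox5b, a respiratory chain subunit, at 1.17 (1.05 to 1.29). Dst had a ratio of 7.17 (1.07 to 306), with 14 UMIs in replication members and 1 in centromere members. Ptma, Rdh10 and Klf7, a transcription factor, were lower in replication than in centromere members. Klf7 had 4 and 11 UMIs, a ratio between the kinds of 0.184 (0.0417 to 0.642). Ptma was at 1.17 (1.12 to 1.22) times the reference in replication members and 1.33 (1.26 to 1.40) in centromere members, a ratio between the kinds of 0.865 (0.813 to 0.920). Rdh10 was at 0.763 and 1.02, a ratio of 0.740 (0.575 to 0.955), so centromere members were level with the reference. Terf1 was at 1.51 (0.829 to 2.61) in replication members, with 18 UMIs, and at 3.16 (1.78 to 5.35) in centromere members, with 19 UMIs, and the ratio between the kinds, 0.531 (0.257 to 1.09), could not be told from 1. Orc2 likewise gave 1.5 (0.642 to 3.91). Gsta3 was below the reference in all 3 kinds, at 0.633, 0.498 and, with both sets of genes, 0.586.

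**Figure D5:**
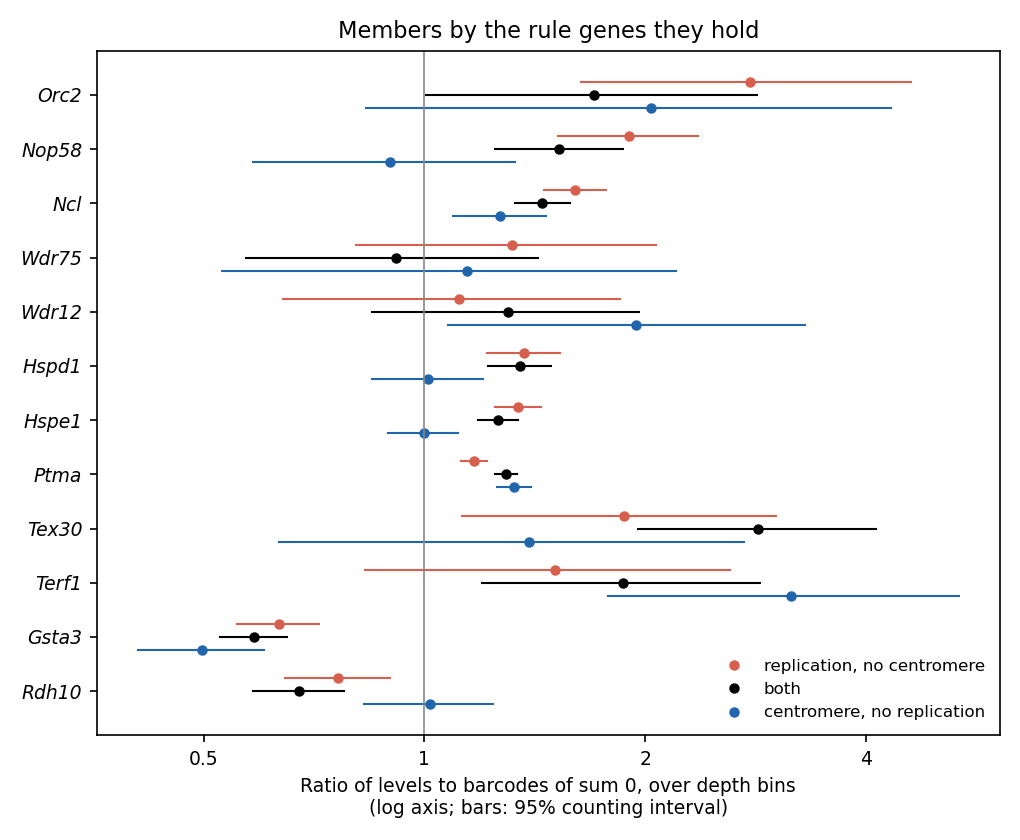
Ratio to barcodes of sum 0 over depth bins (log axis, 95% counting intervals) for 12 genes in members with replication genes alone, with centromere genes alone and with both. Nop58, Hspd1 and Hspe1 lie above 1 in replication members and near 1 in centromere members, and Gsta3 lies below 1 in all 3. Median summed counts were 3 in replication members, 2 in centromere members and 3 in members with both.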

How the data were processed

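Single-cell RNA of 8 samples of 1 genotype was analysed from 1 table of whole-number counts, deposited by the authors with gene symbols in rows and barcodes in columns and read as UMI counts. Cell Ranger, Seurat 2.3.0 and the build mm10 appear, without roles, in the submitters' processing notes. Which aligner, annotation and cell filters made the table is not given in the sources used here. No normalisation was seen in the values. An incomplete row (Asb18, 928 values, all 0) was left out. Of the value columns, 0 were set aside.

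Barcodes under 100 UMIs were left out. UMIs were summed in members and in barcodes of sum 0 within bins of total UMIs (edges at 100, 200, 300, 400 and 600), and a common ratio was estimated by conditional maximum likelihood with an exact conditional 95% interval. Levels have Poisson intervals and shares Clopper-Pearson intervals. Genes needed 50 UMIs in the compared barcodes. A planned count model across samples, and leaving out each sample, needed a map of barcodes to samples and were not run. Named were the 12 highest and 12 lowest ratios, the measured genes of 18 lists and the 6 rule genes, some of which are not reported here. Other genes named, such as Ccnyl1 and Kctd18, were chosen after their values were seen. The members and lists were chosen with earlier results of these data known. Of 779 symbols, 714 were matched in GENCODE M21, 3 of them by an older name. Python 3.11.15, numpy 2.4.6, scipy 1.17.1 and matplotlib 3.10.9 were used, and the ratio was tested on simulated data. Alternatives changed the bins, the weights, the cut on the sum, the filters and the rule genes. Requiring UMIs of 2 or more different rule genes was added after seeing the data.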

Additional observations from a re-analysis of the deposited data

Results flagged for a closer look

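The 6 rule genes were also present in the barcodes left out for low totals, data that the comparisons did not use. In the 72 barcodes under 100 UMIs, 13 of 5043 UMIs belonged to them, 2578 CPM (Poisson 95% interval 1373 to 4408), above the 595 CPM that 3 UMIs would give and beside 2176 CPM in the kept barcodes. Unlike the levels above, these CPM keep the 6 rule genes in the totals. Of these barcodes, 4 had a summed count of at least 2 and the highest sum was 3. No control samples were available for this signal.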

How the results depend on the processing

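Nothing maps barcodes to samples, so no result has a check across animals, and no paired analysis was possible because the barcodes carry no replicate number. Leaving out each sample in turn could not be done. The median of 279 UMIs per barcode limits what single genes can show, and 548 genes had too few UMIs to be compared. The cause of each shift below was not tested, except that fewer or more genes or barcodes entered where a filter or the rule changed.

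The share of members was 7.2% at sums of 3 or more, 35.2% at 1 or more, 16.4% among barcodes of at least 200 UMIs, 11.3% without the deepest 5%, 8.43% without Mcm3 in the rule, 9.29% without Hjurp and 10.7% with UMIs of 2 or more different rule genes. The 18 genes at or above 1.5, of 225 compared, became 28 of 219 at sums of 3 or more and 6 of 234 at 1 or more. With at least 20 UMIs per gene they became 34 of 262, and with at least 200 they became 4 of 144. The 14 at or below 1/1.5 became 24 of 219, 6 of 234, 21 of 262 and 2 of 144 under the same changes. They became 25 of 225 without bins and 24 of 224 without Mcm3. Without bins, 9 of the 18 and 11 of the 14 were still among them.

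Igfbp2 reversed to 0.644 at sums of 3 or more, 0.343 without Mcm3, 0.527 without Hjurp and 0.354 without its 3 highest barcodes. At sums of 1 or more Nabp1 (1.02), Mettl21a (1.03), Rab23 (0.985), 1700019D03Rik (0.972) and Ankrd44 (0.947) reversed, and Slc9a2 did without Mcm3 (0.941). Ncl, Nop58, Hspd1, Hspe1, Orc2, Tex30, Terf1, Gsta3 and Rdh10 kept their direction in all 18 alternatives run for each. Among low-count genes, ratios ran from 0.137 to 0.829 for Cyp27a1, 0.260 to 0.609 for B3gnt7, 0.425 to 0.902 for Ikzf2, 0.135 to 0.446 for Ptprn and 1.18 to 2.18 for Mars2.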

Other observations

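Sp140 and Sp110, of the nuclear body family, were seen in members at counts below the limit for the comparison. Sp140, a chromatin reader of nuclear bodies, had 13 UMIs in 9 members and 19 in 19 reference barcodes, a ratio of 4.63 (1.88 to 11). Its relative Sp110 had 9 UMIs in 8 members and 21 in 20 reference barcodes, a ratio of 3.19 (1.2 to 7.79). Both were singled out after their values were seen. They are neighbours and relatives, and the sources used here do not say how reads shared between such relatives were counted. Among DNA repair genes below the limit, the mismatch repair gene Pms1 had 9 UMIs in 9 members and 9 in 9 reference barcodes, a ratio of 2.59 (0.773 to 8.77), and Rev1, a polymerase that copies damaged DNA, 11 and 29 UMIs and a ratio of 1.97 (0.765 to 4.69). Both intervals include 1. High and low ratios were also frequent among other genes with few UMIs. With at least 20 UMIs per gene, 34 of 262 genes were at or above 1.5 and 21 at or below 1/1.5. At the limit used for the comparison these were 18 and 14 of 225. No share was made for genes at the counts of Sp140, Sp110, Pms1 and Rev1, so their ratios are a description only.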
